A study of Mus musculus with 137 samples.

Results

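The 10 transcripts described here are Btnl1, Btnl2, Btnl4, Btnl6, Cd160, Itgae, Cd8a, Cd3e, Gzma and Gzmb, a set of butyrophilin-like genes of the gut epithelium and genes of the lymphocytes that sit within it, out of 21450 genes targeted by the probe panel. A probe was taken where its gene symbol was on this list. Where a gene had several probes, the one with the highest total count was used, and Itgae alone had a second probe. The members were chosen by values measured in these same libraries, and which comparison was used is not stated. Differences of these genes between concentrations, compartments or days are therefore given as a description, with no p-value. Called means only that edgeR's quasi-likelihood fit of all probes gave an adjusted p under 0.1.

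RNA came from crypt and villus regions scraped from adjacent formalin-fixed, paraffin-embedded sections of the duodenum of female wildtype B6C3F1 mice, a hybrid strain, and was measured by TempO-Seq, in which pairs of short probes are ligated on their target RNA and the ligated products are sequenced. Mice drank water with hexavalent chromium, Cr(VI), given as sodium dichromate dihydrate, at 0, 0.1, 1.4, 5, 20, 60 or 180 ppm for 7 or 90 days (called days 8 and 91). All groups thus share sex, strain and genotype, and differ in compartment, concentration and duration. There were 71 libraries of crypt, 1 from each of 71 mice, and 66 of villus from the same mice, in 28 groups of 5 libraries, other than 6 in crypt at 0.1 ppm on day 8 and 4 in villus at 5, 20 and 180 ppm on day 8 and in untreated villus on day 91. Mouse 90, at 0.1 ppm on day 8, is numbered apart from the other mice of its group (126 to 130), and its label was kept. A library is the RNA of all cells scraped from a region, so fewer cells of a type and less RNA per cell cannot be told apart.

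Butyrophilin-like proteins are membrane proteins related to the B7 family of co-stimulatory molecules. In the mouse small intestine, Btnl1 and Btnl6 are made by enterocytes of the villus, pair with each other at the cell surface and act on intraepithelial gamma-delta T cells that carry the Vgamma7 receptor chain. Intraepithelial lymphocytes lie between epithelial cells, are held there by the integrin alpha-E beta-7 (Itgae encodes the alpha chain) binding to E-cadherin, mostly carry CD8 alpha chains, and store granzymes, the serine proteases of cytotoxic granules.

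The butyrophilin-like genes lie close together on chromosome 17 (GENCODE M21 on GRCm38). Btnl2 (chr17:34354822-34369495) and Btnl1 (chr17:34377132-34386028) are on the forward strand, and Btnl4 (chr17:34466562-34477318) and Btnl6 (chr17:34507804-34517352) are on the reverse strand. From the start of Btnl2 to the end of Btnl6 the cluster spans 162531 bases. The other members lie elsewhere: Cd160 at chr3:96798763-96829351, Itgae at chr11:73090583-73147446, Cd8a at chr6:71373427-71379173, Cd3e at chr9:44998740-45009627, Gzma at chr13:113093825-113100981 and Gzmb at chr14:56258838-56262260. All 10 are annotated as protein coding.

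Each of the 4 butyrophilin-like genes had a downward dose trend called in at least 3 of the 4 sets of compartment and day, and so the 250 bases before the RefSeq start of each (GRCm38.p6, from 5′ to 3′ on the strand of the gene) are shown. For Btnl4, the RefSeq start lies inside the GENCODE gene. Capitals mark matches to a GATA motif (AGATAA) and an HNF4 motif (CAAAGTNCA), binding motifs of factors of the intestinal epithelium, and a CDX motif (TTTATNG) was also searched, each on both strands.
Btnl1, chr17:34376882-34377131, forward strand: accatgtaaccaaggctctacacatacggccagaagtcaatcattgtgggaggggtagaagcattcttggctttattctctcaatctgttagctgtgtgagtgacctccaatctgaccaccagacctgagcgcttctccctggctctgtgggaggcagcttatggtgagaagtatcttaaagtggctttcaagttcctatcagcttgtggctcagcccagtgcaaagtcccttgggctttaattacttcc
Btnl2, chr17:34354572-34354821, forward strand: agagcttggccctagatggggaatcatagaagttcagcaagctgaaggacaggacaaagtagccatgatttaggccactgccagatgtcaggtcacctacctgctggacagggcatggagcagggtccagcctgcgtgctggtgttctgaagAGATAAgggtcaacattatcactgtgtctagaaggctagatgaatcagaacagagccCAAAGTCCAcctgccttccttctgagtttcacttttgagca
Btnl4, chr17:34475938-34476187, reverse strand: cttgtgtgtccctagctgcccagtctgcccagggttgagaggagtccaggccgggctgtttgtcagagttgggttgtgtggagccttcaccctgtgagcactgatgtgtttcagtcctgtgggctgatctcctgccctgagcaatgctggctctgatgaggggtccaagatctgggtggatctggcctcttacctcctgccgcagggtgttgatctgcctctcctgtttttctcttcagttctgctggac
Btnl6, chr17:34517353-34517602, reverse strand: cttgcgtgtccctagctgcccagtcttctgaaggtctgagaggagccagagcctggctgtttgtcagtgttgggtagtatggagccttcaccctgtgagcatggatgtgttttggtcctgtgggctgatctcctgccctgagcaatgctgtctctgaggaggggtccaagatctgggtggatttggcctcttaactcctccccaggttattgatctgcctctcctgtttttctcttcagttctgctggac

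Within these windows, matches were found for Btnl2 alone, a GATA match starting at position -98 and an HNF4 match starting at -41 from the start, and the 2 do not overlap. Of 32851 promoter windows of this kind, 1.19% held an HNF4 match, 9.81% a CDX match and 9.99% a GATA match, so a match to one of these letters is a description of the window and not a binding site. The Btnl4 and Btnl6 windows are near copies, with 225 of 249 aligned bases identical (90.4%), whereas the other pairs of butyrophilin-like windows were 58.3% to 63.8% identical over their aligned parts. The longest coding transcripts of Btnl4 and Btnl6 were 89.8% identical (1454 of 1620 aligned bases), against 59.1% to 62.0% for the other pairs. Probe sequences were not used here, so counts of Btnl4 and Btnl6 may share reads, and the levels of either are uncertain to that extent.

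Total counts ranged from 1463938 to 7199801 per library, and a library detected 12957 to 23112 of 30146 probes. Untreated villus on day 91 was shallow, at 1667014 to 2678299 counts in its 4 libraries. A score of crypt markers minus villus enterocyte markers (mean log2 level) was higher in crypt than in villus of the same animal in all 66 mice with both, and the crypt libraries lay above the villus libraries at all 14 combinations of concentration and day other than untreated mice of day 8. There the villus library of mouse 48 scored -0.65, where the other 4 lay at -5.06 to -3.92, and the crypt library of mouse 49 scored -3.48, where the other 4 lay at -1.46 to 0.02. Both libraries lie in the range of the other compartment, and counts of calls on day 8 are given below with and without both mice. Across concentrations the compartments also overlap, with the lowest crypt score of day 91 at -1.95 and the highest villus score of that day at -1.36. Levels are in CPM, the count of a probe scaled to the effective size of its library after TMM scaling, and differences are on the log2 scale with the standard error of the fit (SE). The median of all probes tested in villus on day 91 stood 0.47, 0.35, 0.24 and 0.12 above untreated at 5, 20, 60 and 180 ppm on this scale, so a lower member there lies below a median that was itself raised.

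In each set 8 to 10 of the 10 members had a downward dose trend that was called, and no member was called higher at any concentration. Among all 26365 probes tested, those called higher at 180 ppm numbered 135 and 592 in crypt on days 8 and 91. In villus they numbered 505 and 2513, and the most at any concentration was 2931, in villus on day 91 at 20 ppm. Nothing is read from the absence of a higher member. At 180 ppm, 7 of 10 members were past an adjusted p of 0.1 and lower in crypt on day 8, where 2.59% of all probes tested were called lower. The corresponding count was 7 in crypt on day 91 (all probes 1.54%), 8 in villus on day 8 (all probes 2.81%) and 7 in villus on day 91 (all probes 4.54%). Since the members were listed with such results known, nothing is read from these shares. At 60 ppm, 7, 6, 4 and 8 members were called lower in the same order of sets (all probes 0.994%, 2.14%, 3.93% and 3.96%), and at 20 ppm 2, 3, 2 and 5 (all probes 0.114%, 0.0645%, 0.793% and 3.57%). At 5 ppm 1 member, Btnl6 in villus on day 91, was called lower (all probes 0%, 0%, 0.315% and 2.97%). At 1.4 ppm (all probes 0%, 0%, 0.8% and 0.0531%) and at 0.1 ppm (all probes 0%, 0%, 0% and 0.118%), edgeR's quasi-likelihood test called no member in any set, where 0 to 2 members per set had an unadjusted p under 0.05 and DESeq2 called none. At 5 ppm DESeq2 called 4 members lower, Btnl2 in crypt on day 8 and Btnl1, Btnl6 and Cd3e in villus on day 91. At 20 ppm it called 6, 3, 4 and 7 in the order of sets above, at 60 ppm 6, 7, 4 and 8, and at 180 ppm 7, 7, 8 and 7. Equal counts of the 2 tools did not always hold the same members. The share of all probes called by DESeq2 is not given here, so nothing is read from its counts. Without mice 48 and 49, members called lower in crypt on day 8 at 20, 60 and 180 ppm numbered 1, 2 and 6, and those in villus on day 8 numbered 2, 4 and 7. Without the crypt library of mouse 49 alone, the calls over all concentrations in crypt on day 8 numbered 10 in place of 16. The share of all probes called in these reduced fits is not given here. Whether other probes lost calls alike is thus not shown, and nothing more is read from these lower counts.

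The dose trend, the log2 change per step of concentration scored 0 to 6, was called lower for 8 members in crypt on day 8 (all probes 5.41%), 8 in crypt on day 91 (all probes 4.53%), 8 in villus on day 8 (all probes 9.74%) and all 10 in villus on day 91 (all probes 8.08%). The members without a called trend were Cd160 and Cd3e in crypt on day 8, Cd160 and Cd8a in crypt on day 91, and Cd160 and Btnl1 in villus on day 8. The median log2 difference over the 10 members at 180 ppm was -2.18 in crypt on day 8, where the median over all probes was -0.04, and -1.60 in crypt on day 91, where it was 0. In villus these medians were -1.58 on day 8, beside -0.07 for all probes, and -2.17 on day 91, beside 0.12.

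**Figure D1:**
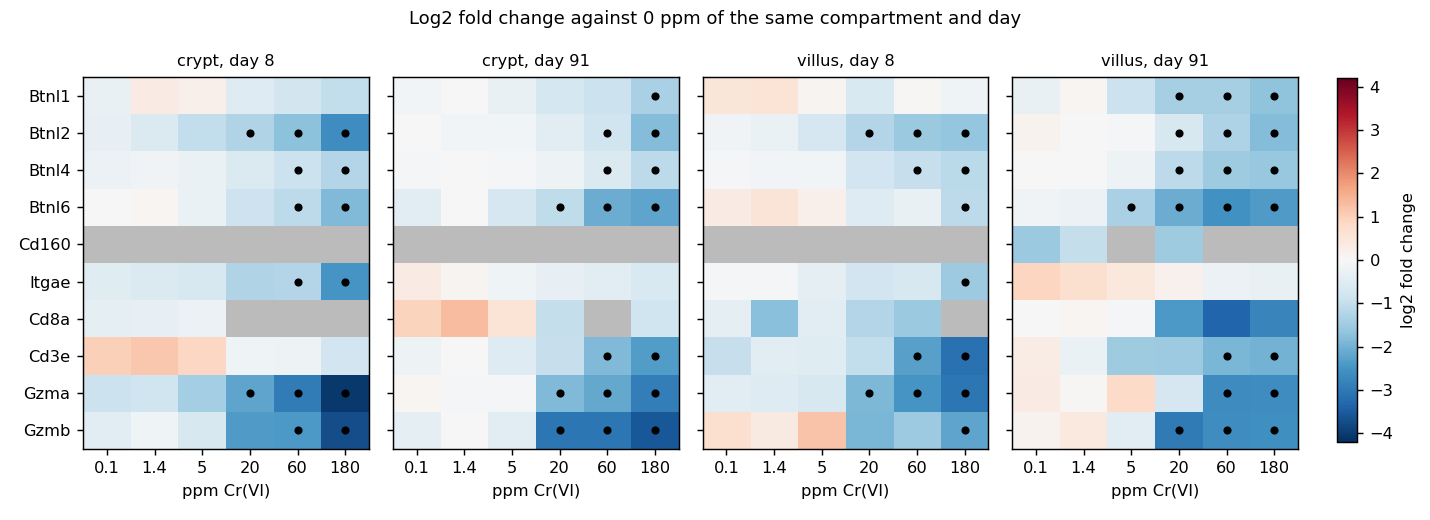
Log2 difference from untreated mice (colour) of each of the 10 members (rows) at each concentration in ppm (columns) in crypt and villus on days 8 and 91, with a dot where edgeR's adjusted p was under 0.1 and grey, with no dot, where every library of a group compared held at most 3 counts. Dots lie at 20 ppm and above, other than Btnl6 in villus on day 91 at 5 ppm, and none marks a higher level.

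Btnl4 had the most counts of the members, and its lowest level in any library was 214 CPM. In untreated crypt on day 8 its level was 582, 665, 708, 863 and 1241 CPM, and at 180 ppm it was 214, 272, 272, 416 and 556 CPM. In crypt on day 91 the untreated libraries were at 533, 536, 632, 805 and 811 CPM and the 180 ppm libraries at 261, 281, 287, 304 and 408 CPM. In both cases every exposed library was below every untreated one. In villus on day 8, untreated mice had 759, 1376, 1392, 1463 and 1492 CPM and mice at 180 ppm had 499.6, 564, 601 and 688 CPM. In villus on day 91 the levels were 846, 1326, 1371 and 1449.5 CPM untreated and 306, 348, 388, 461 and 557 CPM at 180 ppm. The villus groups did not overlap either. For each butyrophilin-like gene, the lowest untreated villus library of day 8 was that of mouse 48, and the highest untreated crypt library of day 8 was that of mouse 49. The log2 difference at 180 ppm was -1.23 ± 0.23 and -1.11 ± 0.23 in crypt on days 8 and 91 and -1.14 ± 0.25 and -1.60 ± 0.24 in villus. At 20 ppm in villus on day 91 the 5 libraries lay at 524, 529, 535, 555 and 779 CPM, below all 4 untreated libraries, and at 5 ppm the range of 918 to 1229 CPM lay within the untreated range.

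Btnl6, the partner of Btnl1 at the enterocyte surface, was lower at 180 ppm in all 4 sets, and in villus on day 91 from 5 ppm. In untreated crypt it was at 192, 205, 262, 289 and 537 CPM on day 8 and at 221, 229, 249.8, 336 and 388 CPM on day 91. At 180 ppm these became 48.5, 53.4, 87.2, 101 and 118 CPM and 35.3, 37.6, 49.8, 69.2 and 114 CPM, with no overlap on either day. In villus the untreated libraries were at 247, 403, 439, 590.1 and 698 CPM on day 8, and at 552, 711, 746 and 838 CPM on day 91. The 180 ppm villus libraries were at 199, 203, 215 and 264 CPM on day 8, where the highest exceeded the lowest untreated library, and at 53.9, 113, 141, 157 and 223 CPM on day 91, all below untreated. The log2 differences at 180 ppm were -1.87 ± 0.29 and -2.22 ± 0.29 in crypt and -1.11 ± 0.30 and -2.37 ± 0.30 in villus on days 8 and 91. By day 91 the villus level was already below every untreated library at 5 ppm, at 189, 236, 255, 331 and 388 CPM and a log2 difference of -1.35 ± 0.29. At that concentration on day 8, with 462, 523, 575 and 622 CPM, the level was inside the untreated range.

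Btnl2, a family member known to inhibit T-cell activation, stepped down gradually, its group mean being lower at each of the 6 successive concentrations in crypt on both days and in villus on day 8. Crypt libraries of untreated mice had 226, 233, 235, 416 and 615 CPM on day 8, and those at 180 ppm had 29.4, 40.1, 57.7, 74 and 81.2 CPM. On day 91, untreated crypt was at 131, 235, 312, 339.5 and 350.0 CPM and crypt at 180 ppm at 37.4, 57.3, 84, 100.2 and 107 CPM. No exposed library reached the untreated range on either day. Villus was at 293, 470.4, 609, 675 and 699.9 CPM untreated and 149, 174, 191 and 193 CPM at 180 ppm on day 8, and at 391, 509, 565 and 596 CPM untreated and 99.2, 106, 172, 172 and 172 CPM at 180 ppm on day 91. Here too the groups were apart. The log2 difference was -2.61 ± 0.26, -1.83 ± 0.25, -1.64 ± 0.27 and -1.84 ± 0.26 in crypt on days 8 and 91 and villus on days 8 and 91, that is, 6.10-, 3.55-, 3.11- and 3.57-fold lower.

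Btnl1, which forms a heteromer with Btnl6, was called lower at 180 ppm on day 91, and by edgeR was not called at 180 ppm on day 8. Its level in villus on day 91 was 50.5, 55.9, 90.4 and 101 CPM untreated and 13.1, 19.4, 23.1, 26.5 and 33.5 CPM at 180 ppm, with a log2 difference of -1.68 ± 0.40 and no overlap. In crypt on day 91 it was 22.3, 26.7, 31.1, 33.5 and 48 CPM untreated and 8.25, 9.73, 13.5, 15.1 and 16 CPM at 180 ppm, again apart, with a difference of -1.37 ± 0.38. Day 8 was less clear-cut. Villus libraries of day 8 were at 12.4, 25.1, 50.3, 60.4 and 85.7 CPM untreated and 27, 32.7, 46.8 and 58 CPM at 180 ppm, which overlap almost entirely, with a 95% interval of the log2 difference of -0.98 to 0.60. Crypt libraries of day 8 ranged over 21.4 to 54.9 CPM untreated and 4.10 to 30.9 CPM at 180 ppm, overlapping, with an interval of -1.79 to -0.28 that lies below 0. DESeq2 called this crypt difference of day 8, and edgeR called it without the 180 ppm library of mouse 526. The crypt call of day 91 was lost without the untreated library of mouse 3.

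**Figure D2:**
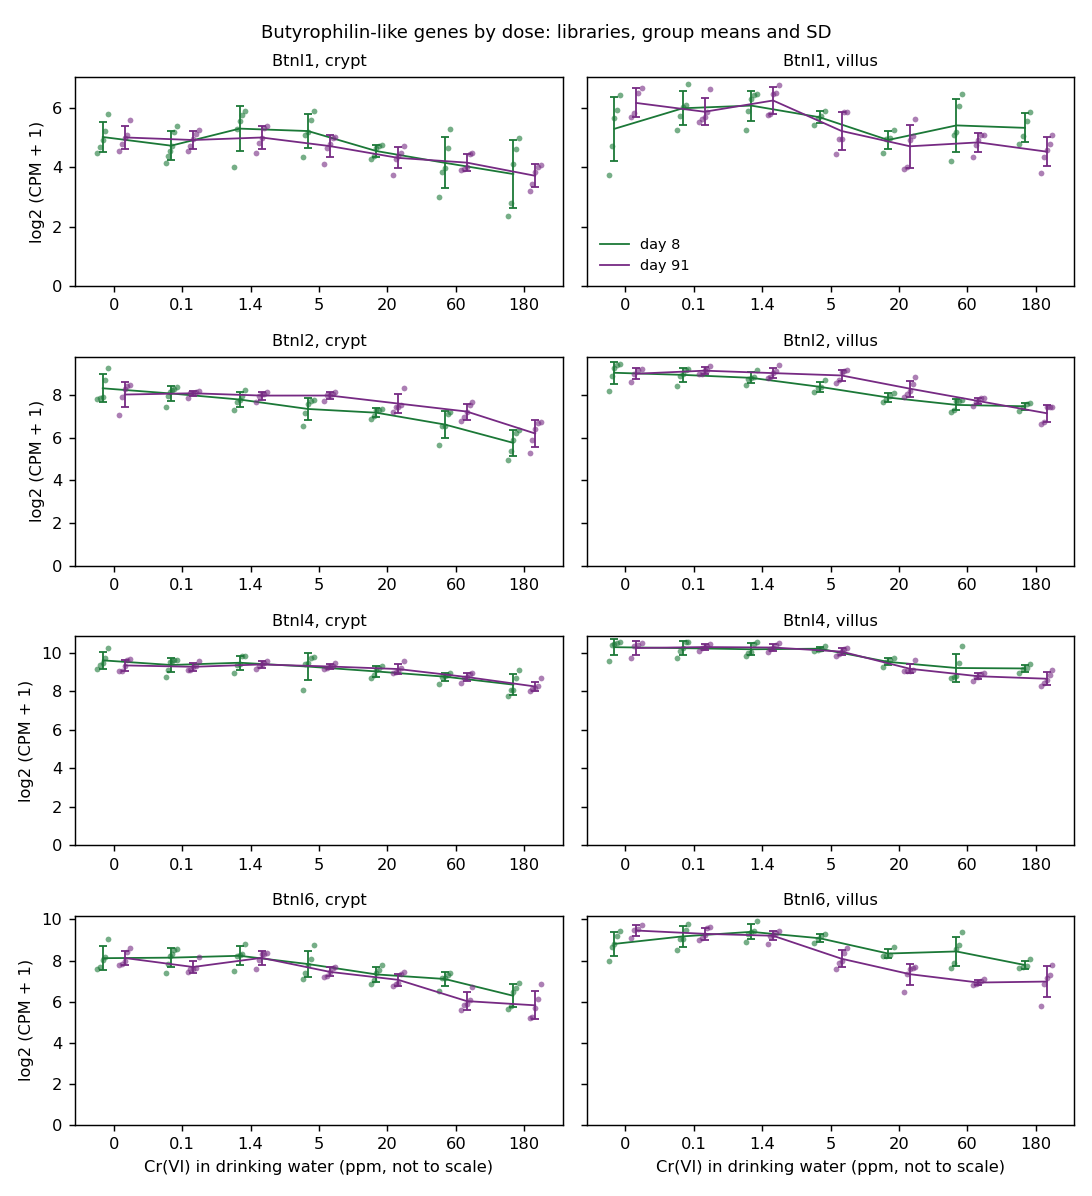
Level as log2 (CPM + 1) of Btnl1, Btnl2, Btnl4 and Btnl6 in each library (points), with the group mean (lines) and SD (bars), by Cr(VI) concentration in ppm, for crypt and villus on days 8 (green) and 91 (purple). Villus group means lie above those of crypt at 0 ppm, and in villus on day 91 Btnl6 is below all untreated libraries from 5 ppm upward.

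Gzma encodes granzyme A, a tryptase of cytotoxic granules. Untreated crypt was at 80.3, 131, 139, 361 and 384 CPM on day 8 and 61.8, 144, 165, 168 and 199.8 CPM on day 91, and crypt at 180 ppm was at 4.31, 10.8, 11.7, 15.8 and 22.7 CPM and 16, 18, 21.2, 21.4 and 22.9 CPM. In villus, untreated libraries had 189, 302, 473, 612 and 710.4 CPM on day 8 and 296, 312, 312 and 385 CPM on day 91, against 22.3, 34.3, 40.8 and 126 CPM and 37.6, 38.4, 39.1, 51.8 and 103 CPM at 180 ppm. In all 4 sets every library at 180 ppm was below every untreated library. The log2 differences at 180 ppm were -4.07 ± 0.43 and -2.89 ± 0.41 in crypt and -3.04 ± 0.44 and -2.59 ± 0.41 in villus, or 16.7-, 7.42-, 8.22- and 6.04-fold lower. Without the villus library of mouse 529, the highest at 180 ppm on day 8, the villus difference of that day was -3.78. At 5 ppm in villus on day 91 the level was 331, 413, 587, 617 and 908 CPM, of which 4 libraries exceeded every untreated library, and the log2 difference was 0.81 ± 0.40, with an interval of 0.00 to 1.61, and was not called. At 20 ppm the same set stood at 111, 151, 159, 182 and 407 CPM, and 4 of those 5 libraries were below every untreated library.

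Gzmb encodes granzyme B, a protease that cleaves after aspartate and triggers apoptosis in target cells. It came near the floor of detection in exposed crypt. Its level in crypt on day 8 was 8.35, 11.1, 16.6, 19.5 and 31.6 CPM untreated and 0, 0, 0, 0.917 and 5.17 CPM at 180 ppm, and on day 91 it was 8.19, 13.5, 14.7, 17.2 and 20.8 CPM untreated and 0, 1.24, 1.35, 1.38 and 2.33 CPM at 180 ppm. In villus, 11.3, 19.1, 26.6, 33.6 and 42.7 CPM on day 8 untreated stood against 2.49, 4.84, 5.57 and 9.80 CPM at 180 ppm, and 20.4, 33.3, 36.4 and 49.8 CPM untreated on day 91 stood against 3.11, 3.49, 6.22, 6.26 and 10.1 CPM. The groups were apart in each set, and the log2 differences were -3.72 ± 0.77, -3.55 ± 0.76, -2.22 ± 0.76 and -2.58 ± 0.73 in crypt on days 8 and 91 and villus on days 8 and 91. Without the 180 ppm crypt library of mouse 529 the crypt difference of day 8 was -5.80, and with counts thinned to the smallest total that of day 91 was -2.69. The villus call of day 8 was lost under 14 of 26 alternatives, among them leaving out both mice 48 and 49, any 1 of the untreated libraries of mice 46, 47, 49 and 50, or any 1 of the 180 ppm libraries of mice 526, 528 and 529. The 4 villus libraries of day 8 at 5 ppm were at 30.7, 61.3, 62.2 and 90.3 CPM and those at 20 ppm at 4.18, 6.03, 8.48 and 9.13 CPM, the latter below every untreated library.

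Cd3e encodes the epsilon chain of the CD3 complex, present on all T cells. In villus it was at 13.2, 24.5, 39.6, 50.2 and 50.3 CPM untreated and 0, 2.76, 6.22 and 7.44 CPM at 180 ppm on day 8, and at 29.5, 33.7, 38.3 and 55.8 CPM and 0, 2.07, 13.7, 15.5 and 18.2 CPM on day 91. Neither pair overlapped, and the log2 differences were -3.12 ± 0.76 and -1.97 ± 0.68. In crypt on day 91 the level was 5.24, 10.9, 12.6, 13.5 and 17 CPM untreated and 1.15, 1.62, 2.27, 2.31 and 4.23 CPM at 180 ppm, a difference of -2.34 ± 0.68 without overlap. The villus call of day 91 was lost without the untreated library of mouse 3 or the 180 ppm library of mouse 485 or 488, and the crypt call of day 91 without the 180 ppm library of mouse 484. In crypt on day 8 the values at 180 ppm split, at 0, 0, 0.253, 9.86 and 16 CPM against 5.69, 7.98, 8.93, 11.1 and 12.3 CPM untreated, and the interval of -2.09 to 0.51 included 0. In that set the summed level of the T-cell receptor and signalling list at 180 ppm also ranged widely, over 18.6 to 223 CPM.

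Itgae, which encodes the integrin alpha-E chain, gave different pictures by day and by probe. The probe with the higher total was at 28.1, 29.9, 32.1, 44.3 and 76.5 CPM in untreated crypt on day 8 and 2.21, 5.46, 7.85, 10.6 and 10.8 CPM at 180 ppm, apart, with a log2 difference of -2.49 ± 0.39. In villus on day 8 it was at 40.7, 54.5, 96.2, 96.9 and 107 CPM and 5.21, 16.9, 42.8 and 44.6 CPM, which overlap in part, with a difference of -1.53 ± 0.40, a call that was lost without the 180 ppm library of mouse 530. On day 91 it was not called at 180 ppm in either compartment. Crypt on day 91 was at 15.8, 25.6, 27, 40.6 and 43.2 CPM untreated and 12.6, 16.7, 21, 22.7 and 24.8 CPM at 180 ppm, and the interval was -1.37 to 0.10. Villus on day 91 was at 17.4, 27.5, 47.4 and 79.7 CPM and 26.6, 28.7, 29.8, 33.2 and 55.2 CPM, with an interval of -1.09 to 0.46. The called dose trends of day 91, -0.14 per step in crypt and -0.13 in villus, were each lost without the untreated library of mouse 6 of that compartment, and the villus trend then became -0.08. The second Itgae probe, which the rule set aside for its lower total of 8005 counts, was past the threshold and lower at 180 ppm in all 4 sets, a description too, since it reports on the same gene in the same libraries. Its log2 differences were -2.25 ± 0.63 in crypt on day 8, -1.90 ± 0.60 in crypt on day 91, -2.02 ± 0.66 in villus on day 8 and -1.89 ± 0.62 in villus on day 91. Its counts in villus on day 91 were 44, 52, 103 and 139 untreated and 11, 18, 35, 40 and 77 at 180 ppm. These raw counts overlap, but the untreated libraries there were shallow. In CPM the same libraries were at 21.9, 27.4, 39.4 and 53.3 untreated and 3.63, 6.22, 8.39, 11.3 and 17.9 at 180 ppm, with no overlap. The dose trend of the second probe was -0.32 ± 0.08, -0.34 ± 0.08, -0.35 ± 0.09 and -0.35 ± 0.08 per step in the same order.

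Cd8a encodes the CD8 alpha chain of intraepithelial and other cytotoxic T cells, and was sparse, with 1283 counts in all libraries together and 52 libraries at 0. In crypt on day 8 the raw counts were 0, 13, 19, 20 and 22 untreated, and 3, 8, 10, 11 and 26 at 5 ppm. At 20, 60 and 180 ppm all 15 crypt libraries of day 8 held 0 counts. With a floor of 3 counts over the group, this is at least 25.6-fold lower at 20 ppm, at least 28-fold lower at 60 ppm and at least 22.5-fold lower at 180 ppm. In villus on day 8 the counts were 0, 0, 13, 18 and 74 untreated and 0 in all 4 libraries at 180 ppm, at least 28.1-fold lower, although 74 of the 105 untreated counts came from 1 library. The crypt call at 180 ppm on day 8 was lost without mice 48 and 49, and the villus call without the 180 ppm library of mouse 528 or 530. DESeq2 did not call Cd8a in crypt on day 8, at 60 or 180 ppm or in the dose trend. DESeq2 did call Cd8a in villus on day 8 at 180 ppm. Where DESeq2 gave no adjusted p, a member counts as not called by it, here and throughout. On day 91 neither compartment was called at 180 ppm, with 95% intervals of the log2 difference of -3.74 to 2.07 in crypt and -5.95 to 0.37 in villus. In villus, counts were 7, 16, 18 and 28 untreated and 0, 0, 4, 7 and 11 at 180 ppm, and in crypt they were 2, 2, 4, 8 and 14 and 0, 0, 0, 6 and 12. In CPM the highest villus library at 180 ppm (2.56) was just below the lowest untreated one (2.68), while the crypt groups overlapped.

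Cd160, a receptor of natural killer cells and intraepithelial lymphocytes, was barely detected, with 221 counts in all and 110 libraries at 0. In villus on day 91 the counts were 0, 0, 11 and 12 untreated and 0 in all 5 libraries at 60 ppm, at least 16-fold lower. This difference and the dose trend of that set were called by edgeR and not by DESeq2. At 180 ppm they were 0, 0, 0, 0 and 3, a ratio of 15.1 with an exact 95% counting interval of 4.55 to 78.4. The untreated libraries of day 8 held no Cd160 count in either compartment, so no lower level could be seen there. Exposed libraries of that day held a few counts, in crypt 0, 0, 4, 6 and 7 at 60 ppm and 0, 0, 0, 0 and 11 at 180 ppm. In villus they held 0, 0, 0, 0 and 10 at 0.1 ppm, 0, 0, 0, 0 and 14 at 1.4 ppm, 0, 0, 12 and 22 at 5 ppm and 0, 0, 6 and 18 at 180 ppm. These 6 comparisons with untreated mice had an unadjusted p under 0.05 in edgeR, toward a higher level, and none was called by edgeR or DESeq2. Counting intervals and floors cover counting error only.

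**Figure D3:**
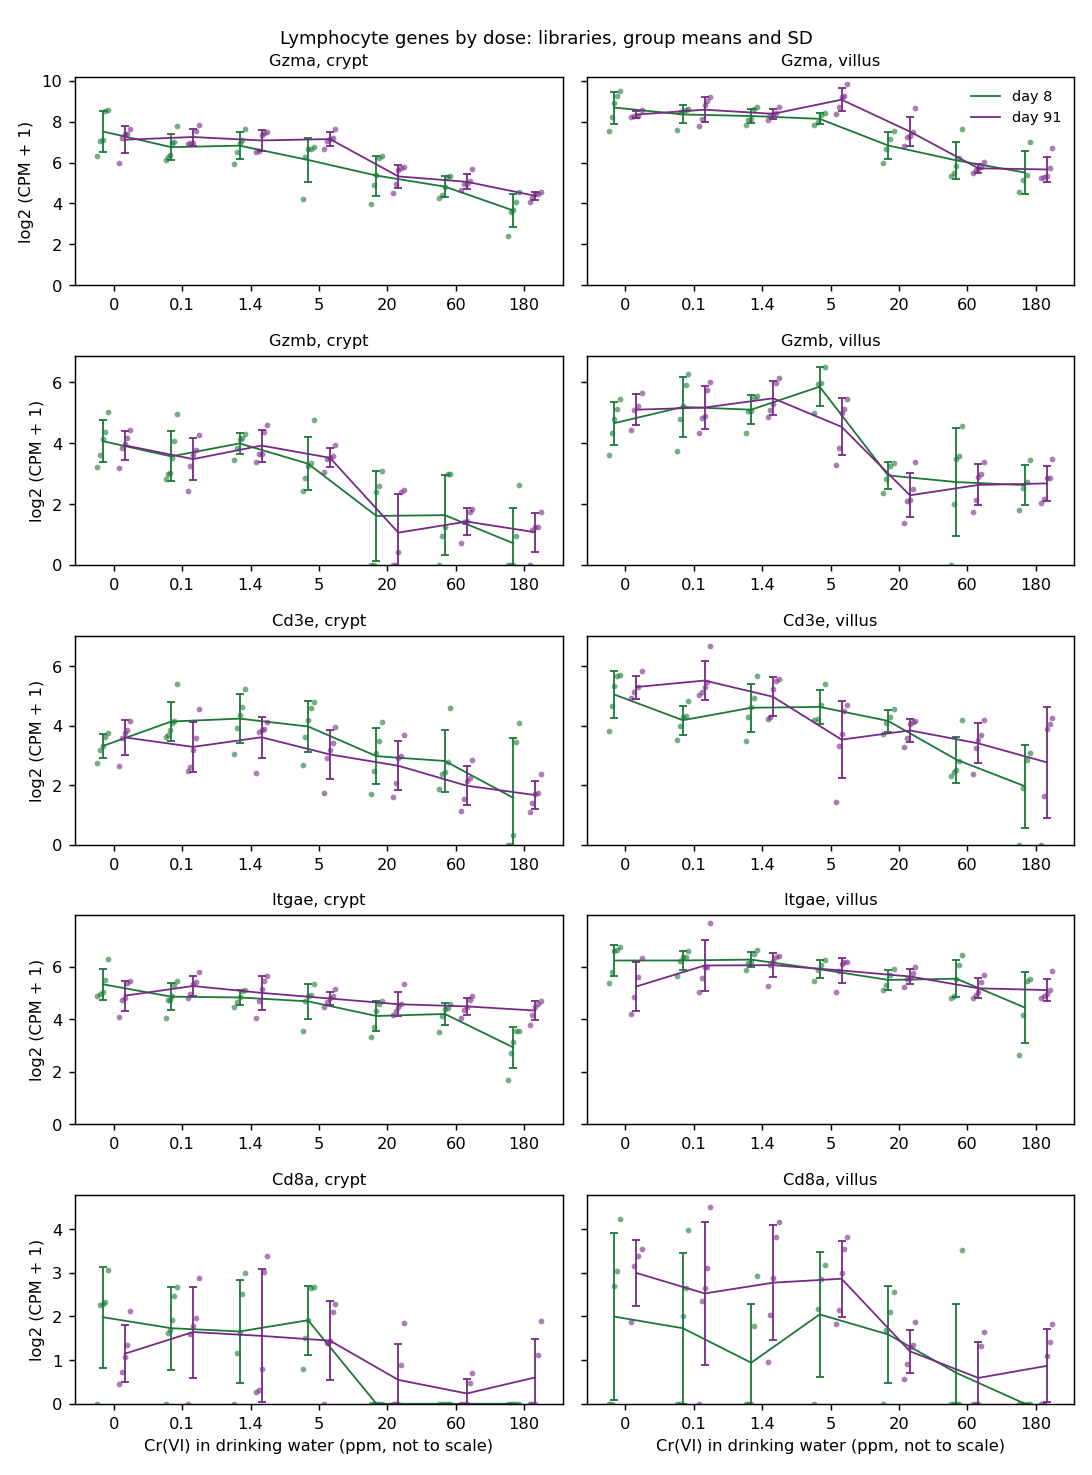
Level as log2 (CPM + 1) of Gzma, Gzmb, Cd3e, Itgae and Cd8a in each library (points), with the group mean (lines) and SD (bars), by Cr(VI) concentration in ppm, for crypt and villus on days 8 (green) and 91 (purple). Mean Gzma and Gzmb step down between 5 and 20 ppm in villus, and Cd8a is at 0 in every crypt library of day 8 from 20 ppm upward.

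How far the groups lie apart without any model can be counted. Members with every 180 ppm library below every untreated one numbered 6 in crypt on day 8, 7 in crypt on day 91, 5 in villus on day 8 and 8 in villus on day 91. The share of all tested probes of that kind was 2.1%, 2.74%, 1.9% and 2.77%. At 60 ppm the members were 6, 5, 1 and 8 (all probes 1.08%, 3.55%, 1.19% and 3.42%). At 20 ppm they were 4, 3, 3 and 6 (all probes 0.66%, 1.25%, 1.15% and 2.42%), and at 5 ppm 1, 1, 0 and 2 (all probes 0.25%, 0.546%, 0.941% and 1.72%). At 5 ppm these were Btnl2 in crypt on day 8, Btnl6 in crypt on day 91, and Btnl6 and Cd3e in villus on day 91. No member had every exposed library above every untreated one at any concentration. The share of all probes of that kind was not counted, so nothing is read from this.

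Most members were lower in crypt than in villus. Whether this contrast had a part in the choice of members is not stated, so it too is a description. Over all 14 pairs of crypt and villus groups, 8 members were lower in crypt by edgeR's quasi-likelihood test, where 13.2% of all probes were lower, and the median of all probes was 0.24 on that log2 scale. The log2 difference, crypt minus villus, was -0.87 ± 0.10 for Btnl1, -0.91 ± 0.07 for Btnl2, -0.64 ± 0.06 for Btnl4, -1.07 ± 0.08 for Btnl6, -1.14 ± 0.10 for Itgae, -1.04 ± 0.17 for Cd3e, -1.49 ± 0.10 for Gzma and -1.56 ± 0.19 for Gzmb. Cd8a and Cd160 have whole groups at 0 counts, for which this contrast of edgeR gave no usable standard error, and DESeq2 called 9 members lower, Cd8a besides the 8. In untreated mice of day 91, 5 members were lower in crypt (all probes 3.14% lower), with differences of -1.20 ± 0.39 for Btnl1, -0.91 ± 0.25 for Btnl2, -0.91 ± 0.24 for Btnl4, -1.32 ± 0.29 for Btnl6 and -1.14 ± 0.40 for Gzma. DESeq2 called these 5 and Cd3e. In untreated mice of day 8, no member was called (all probes 0.121% lower), and those libraries include the villus library of mouse 48 and the crypt library of mouse 49, which lie in the range of the other compartment on the marker score. On day 8, 6 members had an unadjusted p under 0.05 and DESeq2 called 4 of them, Btnl2, Btnl4, Itgae and Gzma. Without the villus library of mouse 48 alone, or without the crypt library of mouse 49 alone, edgeR called 4 members on day 8, while without both mice it called none. With the mouse as a block, 4 members were called lower in crypt in untreated mice of day 8, Btnl2 by -0.73, Btnl4 by -0.69, Btnl6 by -0.70 and Gzma by -1.16. On day 91, the blocked fit called 4, with Btnl1 no longer among them. The day 91 count was 3 without the untreated villus library of mouse 3 or without that of mouse 6. The Btnl1 call was lost without either or without the crypt library of mouse 8, and the Gzma call without either, the villus library of mouse 5 or the crypt library of mouse 3.

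The same order held within mice. Of 66 mice with both compartments, villus was higher than crypt of the same animal in 65 for Btnl2, 65 for Gzma, 63 for Btnl6, 63 for Itgae, 59 for Btnl4, 59 for Gzmb, 58 for Btnl1 and 52 for Cd3e. The median difference, villus minus crypt on the log2 (CPM + 1) scale, was 1.55 for Gzmb, 1.44 for Gzma, 1.13 for Cd3e, 1.12 for Btnl6, 1.08 for Itgae, 0.91 for Btnl2, 0.87 for Btnl1 and 0.65 for Btnl4. Cd8a was higher in villus in 35 mice, higher in crypt in 18 and equal in 13, and Cd160 was higher in villus in 15, higher in crypt in 8 and equal in 43.

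**Figure D4:**
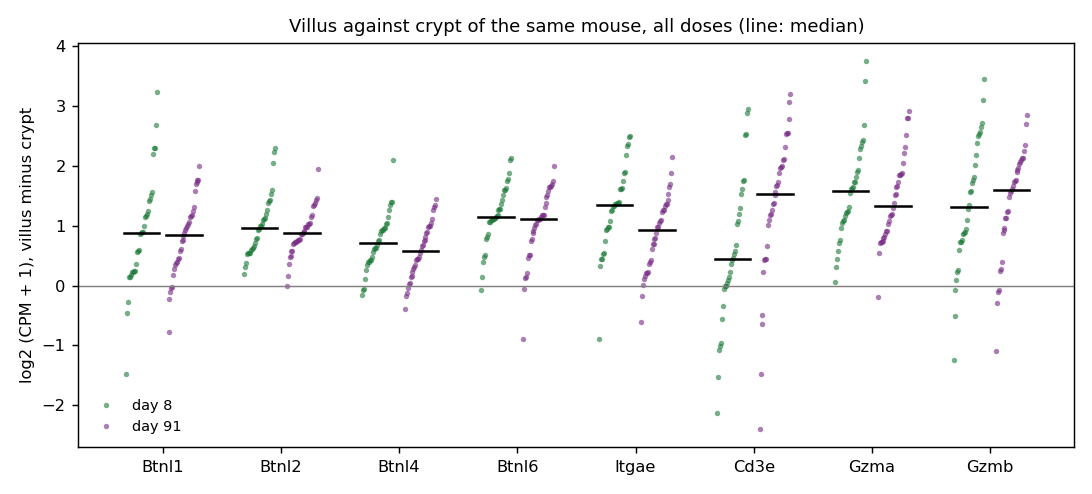
Log2 (CPM + 1) of villus minus that of crypt of the same mouse (points, 66 mice at all concentrations) for 8 members on days 8 (green) and 91 (purple), with the median of each day as a line. Nearly all points lie above 0 for Btnl2, Gzma, Btnl6 and Itgae.

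The size of the dose trend was compared between compartments and between days by a contrast of the trends themselves, again as a description. Between villus and crypt on day 8 no member was called by edgeR's quasi-likelihood test (all probes 0.721% called), 1 member (Btnl2) had an unadjusted p under 0.05, and DESeq2 called none. On day 91 the trend of Btnl4 was steeper in villus, by -0.15 ± 0.04 per step (all probes 2.47% called), where the separate trends were -0.16 in crypt and -0.32 in villus. That call was lost without the untreated villus library of mouse 6 and with total count as a covariate. It was also lost in fits that left out library 1, 2, 3 or 5 of every group. Between days, in villus, the trend was steeper on day 91 for Btnl6, by -0.29 ± 0.05 per step, and for Btnl1, by -0.22 ± 0.07. The Btnl1 call was lost without mice 48 and 49, and without the villus library of mouse 526 at 180 ppm on day 8, whereas Btnl6 kept its call under all 35 alternatives. For Btnl4 the villus difference between days was -0.11 ± 0.04, not called, although DESeq2 called it along with Btnl1 and Btnl6, and it was called under 16 of 35 alternatives. In that comparison 11.6% of all probes were called and 1.16% were called lower. For Btnl6 the separate villus trends were -0.20 on day 8 and -0.49 on day 91. In crypt, Cd8a alone passed between days (all probes 1.4% called). This gene was at 0 in every crypt library of day 8 from 20 ppm upward, so its fitted size depends on the prior count. DESeq2 called no member there, but it gave no adjusted p for Cd8a in that comparison. The crypt call of Cd8a was also lost without the 180 ppm library of mouse 484 on day 91, and without library 1, 2, 4 or 5 of every group. Between untreated mice of days 8 and 91, edgeR's quasi-likelihood test called no member in crypt (all probes 0.00379%) or in villus (all probes 2.33%). In these comparisons an unadjusted p was under 0.05 for 0 and 3 members (Btnl6, Cd160 and Itgae in villus), and DESeq2 called none.

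Other genes of the same pathways were taken from lists put together with earlier results of these data known. The T-cell receptor list had 21 genes tested, of which 4, 7, 8 and 6 were past the threshold and lower with dose in crypt on days 8 and 91 and villus on days 8 and 91, and 1 (Cd8b1, the CD8 beta chain, in villus on day 91) was higher. The background is the share of all probes lower with dose given above, and the share higher was 3.26%, 9.22%, 5.78% and 22.3%. The CD3 gamma chain gene Cd3g and the constant regions of the delta and gamma receptor chains, Trdc and Tcrg-C1, fell in all 4 sets. Cd3g changed by -0.45, -0.52, -0.49 and -0.56 per step, Trdc by -0.50, -0.47, -0.45 and -0.46 and Tcrg-C1 by -0.53, -0.43, -0.48 and -0.68, in that order of sets. Without mice 48 and 49 the counts lower on day 8 were 4 in crypt and 7 in villus. The median over the list was -0.27, -0.26, -0.31 and -0.19, where the median over all probes tested was -0.01, 0.01, -0.04 and 0.07.

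Among 28 tested genes of intraepithelial and cytotoxic lymphocytes, 11, 10, 10 and 9 were lower with dose and 0, 0, 0 and 3 (Klrk1, Ncr1 and Tyrobp) were higher, with list medians of -0.21, -0.21, -0.35 and -0.14. Without mice 48 and 49, 7 were lower in crypt and 8 in villus on day 8. Ccl5, a T-cell chemokine, fell in all 4 sets, with trends of -0.72, -0.64, -0.52 and -0.75 per step, as did Nkg7, a granule protein of cytotoxic cells, with -0.53, -0.51, -0.39 and -0.55, and the killer lectin-like receptor Klrd1, with -0.48, -0.31, -0.34 and -0.42. Tyrobp, an adapter that myeloid cells also carry, fell in crypt, by -0.22 ± 0.03 on day 8, and rose in villus on day 91, by 0.14 ± 0.03. Of 9 other granzyme and granule genes, 1, 0, 2 and 1 were lower and 0, 0, 0 and 1 higher, among them Gzmk lower in crypt on day 8 and villus on day 91. The wider butyrophilin family in the panel had 4 tested genes, of which none was lower, and Btn2a2 in crypt on day 91 and Btnl9 in villus on day 91 were higher. These were very sparse, with summed levels of at most 22.9 CPM in any library.

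Epithelial ligands and support factors of these lymphocytes formed a list of 18 tested genes, of which 3, 5, 4 and 7 were lower and 0, 1, 1 and 2 higher, with medians near 0 (-0.06, -0.04, -0.05 and -0.06). H2-T3, which encodes the thymus leukaemia antigen, a ligand of CD8 alpha homodimers, had trends of -0.22, -0.30, -0.20 and -0.38 per step. H2-T22, a ligand of some gamma-delta receptors, had trends of -0.12, -0.15, -0.12 and -0.12, and the mucin gene Muc13 had -0.24, -0.15, -0.18 and -0.24. Hnf4a, a transcription factor of the intestinal epithelium, was lower in villus on day 91, by -0.15 ± 0.04. The trend of H2-T3 was steeper in villus on day 91 than on day 8, by -0.18 ± 0.06.

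**Figure D5:**
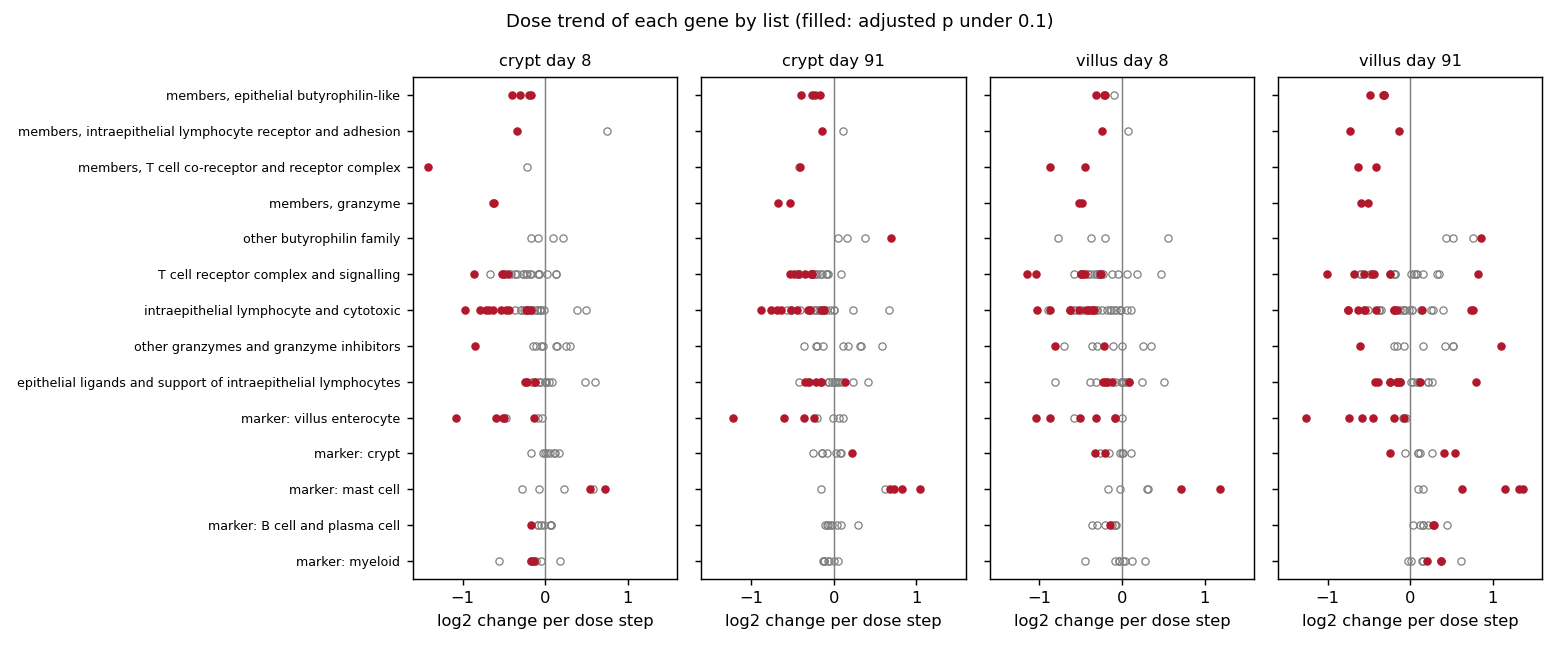
Dose trend (log2 change per concentration step) of each tested gene of the related lists and the members (points), by list (rows) and by set (panels), with points filled red where edgeR's adjusted p was under 0.1. Filled points of the T-cell and cytotoxic lists lie mostly below 0, and those of the mast cell list all lie above it.

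Some markers of other cells were called with dose as well. Beside the counts below, the share of all probes lower with dose was 5.41%, 4.53%, 9.74% and 8.08% in the same order of sets. The share higher was 3.26%, 9.22%, 5.78% and 22.3%. Of 8 villus enterocyte markers, 5, 4, 5 and 6 were lower with dose in the same order of sets, and none was higher. Their summed level ranged over 11008 to 31554 CPM in untreated crypt on day 8 and 2839.8 to 5309 CPM at 180 ppm, and 29351 to 53999.5 and 9697 to 23549.7 CPM in villus on day 91. Apoa4, an apolipoprotein of absorptive enterocytes, and Ada, adenosine deaminase of the villus tip, were among the lower ones. Of 6 mast cell markers, 2, 4, 2 and 4 were higher, the mast cell proteases Mcpt1 and Mcpt2 in each set, and none was lower. The summed level of the list ranged over 0 to 25.6 CPM untreated and 106 to 474 CPM at 180 ppm in villus on day 91, and over 23.5 to 74.5 CPM and 142 to 348 CPM in crypt on day 8. Markers of B and plasma cells were lower in 1, 0, 1 and 0 of 8 and higher in 0, 0, 0 and 2. Myeloid markers were lower in 2, 0, 0 and 0 of 8 and higher in 0, 0, 0 and 3. Crypt markers were lower in 0, 0, 2 and 1 of 8 and higher in 0, 1, 0 and 2. For these lists of 8, with 22.3% of all probes higher in villus on day 91, nothing is read from the counts. No pancreatic acinar marker was called, although their sum ran from 4.93 to 236732 CPM over the libraries. The part of these other cells in the levels of the members was not tested.

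The 5 genes whose 28 group means ranked most like those of Btnl4, the epithelial member with the most counts, were Ceacam20, Synpo, Ccl5, Slc9a3 and Cobl, with Spearman correlations of 0.984, 0.962, 0.959, 0.959 and 0.958. For Gzma, the lymphocyte member with the most counts, they were H2-T23, Pls1, Btnl2, Sectm1b and H2-Q2, at 0.970, 0.967, 0.963, 0.962 and 0.962. The 28 groups share the same compartments, concentrations and libraries, so these values describe the pattern only. After the group means were taken away, the correlation over all libraries was 0.26 to 0.62 between butyrophilin-like genes (median 0.52 over 6 pairs), 0.12 to 0.46 between Gzma, Gzmb, Cd3e and Itgae (median 0.35 over 6 pairs), and -0.03 to 0.47 between one kind and the other (median 0.23 over 16 pairs). Libraries share depth and the makeup of the scraped tissue, so these too are descriptions. Btnl4 and Btnl6 may share reads, as above. Crypt and villus residuals of a mouse correlated at 0.43 for Btnl2, 0.40 for Btnl6, 0.36 for Btnl4, 0.33 for Gzma, 0.27 for Gzmb and 0.24 for Itgae, over 66 mice. The correlation was 0.16 for Cd160, 0.06 for Btnl1, 0.02 for Cd3e and 0.02 for Cd8a.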

How the data were processed

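TempO-Seq libraries of crypt and villus were demultiplexed with bcl2fastq 2.17.1.14 and aligned with Bowtie (per the submitters' processing notes, which give no version for it). The authors deposited the result as whole-number counts per probe, not normalized. Labels gave the group and the mouse of each library. The mouse number pairs crypt with villus, which entered as a block in an alternative fit only. Residuals of the same mouse correlated at a median of 0.107 (66 mice), and those of different mice at -0.0289 (248 pairs). No 2 libraries of a group agreed within sampling noise.

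Counts of 26365 of 30146 probes that passed filterByExpr were fitted with edgeR 4.0.16 (R 4.3.3) in 1 model of the 28 groups, with TMM scaling, a trended dispersion and the legacy quasi-likelihood test. P-values were adjusted by the Benjamini-Hochberg method over all probes of a comparison, with a threshold of 0.1. The fit across probes was tested on simulated data. DESeq2 1.42.0 was an alternative, as were other scalings, filters, thinning, and fits with libraries left out. All 10 members passed the filter. CPM values carry the depth of their library, and sparse genes are given as counts. Library n are separate mice. Sequences came from RefSeq, and gene positions from GENCODE M21.

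The members, the related gene lists and their tests were chosen with earlier results of these data known. Genes named beside the members were, from each related list, up to 3 per set by adjusted p among those past the threshold in a dose trend, and the 5 genes most like Btnl4 and Gzma by Spearman correlation of group means (probes with a mean count of at least 10). Cd8b1, Klrk1, Ncr1, Tyrobp in villus, Apoa4, Ada, Mcpt1 and Mcpt2 were named after their values were seen.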

Additional observations from a re-analysis of the deposited data

Results flagged for a closer look

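Groups of untreated and 180 ppm libraries of each member were searched for a library far from the others of its group (Dixon's test). Of 74 groups, 7 held one. The test's nominal rate of 1 in 20 is for normal values and was not checked for CPM. A group with only 1 library above 0 is always flagged, as in both Cd160 groups below, so 7 is not compared with that rate. Among untreated day 8 libraries these were Btnl4 in the villus library of mouse 48, at 759 CPM, below the others, and Btnl6 in the crypt library of mouse 49, at 537 CPM, where the others reached at most 289. Both libraries lie in the range of the other compartment on the marker score. Among villus libraries at 180 ppm on day 91, that of mouse 490 stood above the rest for both Gzma, at 103 CPM where the others lay at 37.6 to 51.8, and Itgae, at 55.2 CPM where they lay at 26.6 to 33.2. Gzmb in crypt at 180 ppm on day 8 was at 5.17 CPM in mouse 529 and at most 0.917 in the others. Cd160 in crypt at 180 ppm was at 2.52 CPM in mouse 530 on day 8 and at 1.9 CPM in mouse 488 on day 91, with the other libraries at 0.

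The dose trend differed between compartments or days by a contrast of the trends in the fit, given as a description since the members were chosen on these libraries, for 4 pairs of member and comparison. Villus minus crypt on day 91 was -0.15 per step for Btnl4, and day 91 minus day 8 was -0.22 for Btnl1 and -0.29 for Btnl6 in villus. For Cd8a in crypt it was 1.0, a fitted value that depends on the prior count, since every crypt library of day 8 from 20 ppm upward held 0 counts.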

How the results depend on the processing

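Of 170 member differences (at 180 ppm, in the dose trends and in the other contrasts), 80 were called. Recomputed under the alternatives, the 80 gave 2100 values, none of opposite direction, of which 95 were no longer past the threshold. An alternative that gave no adjusted p for a member was left out. A call lost in that way is thus not among the 95. Of the 170 differences, DESeq2 gave 143 values and the filter of a mean count of at least 10 gave 136. The 90 not called gave 2648 values, of which 55 passed it. Without mice 48 and 49, members past the threshold over all concentrations in crypt on day 8 went from 16 to 9, and those whose villus trend differed between days from 2 to 1. For crypt against villus in untreated mice of day 8, where none was called, edgeR's default form called 1 and DESeq2 called 4. The difference of crypt trends between days (1 member, Cd8a) went to 0 with edgeR's default form and with thinned counts. It also went to 0 with a mean count of at least 10, a filter that Cd8a did not pass. DESeq2 gave no adjusted p for Cd8a in that comparison. The difference of villus and crypt trends on day 91 (1 member) went to 0 with log10 total count as a covariate. Without mouse 90, 1 of the 170 member differences lost its call. The cause of the remaining changes was not tested. Fits that left out 1 library, or the same numbered library of every group, kept the dispersion trend of the full fit and only its probes. The depth covariate and the mouse block did so too. Fits without mice 48 and 49, or without mouse 90, chose probes and estimated the trend anew. Their counts thus differ from those of the other fits in more than the libraries dropped.

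With mouse as a replicate block, the 66 pairs gave 4 members in untreated mice of day 8, 4 on day 91 and 8 over the 14 groups, and 0 and 1 for the trend differences of days 8 and 91, so the block changed no other call of these counts beyond Btnl1 on day 91 and the 4 on day 8.

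When libraries were left out, the members past the threshold over all concentrations ranged from 8 to 17 in crypt on day 8 (16 in full), 9 to 16 in crypt on day 91 (16), 10 to 15 in villus on day 8 (14) and 17 to 21 in villus on day 91 (21). The dose trends ranged over 7 to 9, 7 to 9, 8 to 8 and 8 to 10. Crypt against villus in untreated mice ranged over 0 to 4 on day 8 and 1 to 5 on day 91, and over the 14 groups it stayed at 8. Villus against crypt trends ranged over 0 to 0 on day 8 and 0 to 1 on day 91, and trends between days over 0 to 1 in crypt and 1 to 3 in villus. Untreated days against each other stayed at 0 in both compartments. Depth limits Cd160, Cd8a and Gzmb in exposed crypt, where libraries at 0 allow a level up to 3 counts over the group.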
